A study of Mus musculus with 4 samples.

Results

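The BCL2 family decides at the mitochondrion whether a cell enters intrinsic apoptosis, and 10 of its genes were followed here in testes that lack RFX2. They were chosen by gene symbol alone and comprised the guardians Bcl2, Bcl2l1 (BCL-XL), Bcl2l2 (BCL-W) and Mcl1, the effectors Bax and Bak1, and the BH3-only genes Bid, Bcl2l11 (BIM), Bbc3 (PUMA) and Pmaip1 (NOXA). All 10 were found among the 22311 gene symbols of the RNA-seq data, each under 1 entry. Of the 8 members tested, 0 passed the test between genotypes, against 2.83% of all genes tested. Among these 10 members, the guardians Bcl2l1 and Mcl1 had the highest FPKM in every sample, while Bcl2 itself had the lowest.

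RNA was taken from the total testicular cells of 24-day-old males, with 2 Rfx2-/- samples (mutant 1 and 2) and 2 control samples (control 1 and 2). In the sample labels the controls are wild type and the strain is DBA, whereas the study's methods describe heterozygous controls on a mixed 129/s6 and C57BL/6 background, so a control may carry 1 disrupted allele. In the mutant allele the exons for the DNA-binding domain of RFX2 are replaced by a neomycin-resistance cassette in every cell of the animal, and the line derives from a single embryonic stem cell clone. The samples of a genotype are described as independent biological samples, but whether animals were pooled was not given in the sources used here. Abundance is given as FPKM, that is fragments per kilobase of transcript scaled to the depth of the sample, which the authors computed, so that levels can be compared between genes per length.

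Intrinsic apoptosis turns on the outer mitochondrial membrane. BAX and BAK, once activated, form pores in it and release cytochrome c, which assembles with APAF1 and caspase-9 into the apoptosome and so starts the executioner caspases. The guardian proteins hold BAX and BAK and the BH3-only proteins in check, while BH3-only proteins, switched on by p53, endoplasmic reticulum stress or loss of survival signals, occupy the guardians or activate the effectors directly. In the testis BAX is needed for the early wave of germ cell death that matches germ cell number to Sertoli cells, and BCL-W is needed for the upkeep of spermatogenesis. Much of the control of this family, such as the cleavage of BID and the turnover of MCL1, acts on protein, which RNA-seq does not measure.

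The label check and the cellular make-up of the samples were examined first. Rfx2 had an FPKM of 36.7 in mutant 1, 39.8 in mutant 2, 123 in control 1 and 89.4 in control 2, and it fell by 1.43 on the log2 scale (SE 0.19, limma adjusted p = 0.00617). Mutant 1 stood apart from the other samples. The summed FPKM of 8 elongating spermatid markers was 1220 in mutant 1 against 5284 to 7784 elsewhere, and that of 8 round spermatid markers was 501 against 686 to 942, with each of these 16 markers lower in mutant 1 than in mutant 2. None of the markers of germ, Sertoli, Leydig, macrophage, peritubular or endothelial cells found in the files was listed at 0 in any sample. In such bulk RNA, fewer cells of a type and less RNA per cell cannot be told apart.

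To span the family, 4 members were chosen. They were the most abundant guardian (Bcl2l1), the guardian with the shortest-lived protein (Mcl1), the more abundant effector (Bax) and Bbc3. Bbc3 had the lowest mean FPKM of the BH3-only members, though it could not be ordered against Pmaip1. The regions just before the transcription start sites of these 4 members are shown. Each is the stretch of 250 bases before the most upstream RefSeq start, from the GRCm38.p6 assembly, written 5′ to 3′ on the strand of the gene, and capitals mark the GC box GGGCGG or its reverse complement CCGCCC.
Bcl2l1, chr2:152831729-152831978, minus strand: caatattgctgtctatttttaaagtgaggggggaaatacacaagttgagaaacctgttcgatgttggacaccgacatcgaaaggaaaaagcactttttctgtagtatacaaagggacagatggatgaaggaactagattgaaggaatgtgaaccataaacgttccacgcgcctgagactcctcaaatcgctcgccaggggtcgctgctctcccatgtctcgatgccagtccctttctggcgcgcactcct
Mcl1, chr3:95658471-95658720, plus strand: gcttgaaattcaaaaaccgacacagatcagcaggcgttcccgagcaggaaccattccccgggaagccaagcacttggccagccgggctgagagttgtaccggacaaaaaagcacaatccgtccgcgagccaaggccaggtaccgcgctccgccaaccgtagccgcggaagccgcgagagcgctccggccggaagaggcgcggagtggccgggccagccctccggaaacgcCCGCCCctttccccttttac
Bax, chr7:45466899-45467148, minus strand: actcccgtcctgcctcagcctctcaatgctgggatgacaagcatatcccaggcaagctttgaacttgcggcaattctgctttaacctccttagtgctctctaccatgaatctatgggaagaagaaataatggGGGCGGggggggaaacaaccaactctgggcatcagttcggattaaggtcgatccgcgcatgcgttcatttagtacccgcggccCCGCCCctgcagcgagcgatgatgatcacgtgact
Bbc3, chr7:16309333-16309582, plus strand: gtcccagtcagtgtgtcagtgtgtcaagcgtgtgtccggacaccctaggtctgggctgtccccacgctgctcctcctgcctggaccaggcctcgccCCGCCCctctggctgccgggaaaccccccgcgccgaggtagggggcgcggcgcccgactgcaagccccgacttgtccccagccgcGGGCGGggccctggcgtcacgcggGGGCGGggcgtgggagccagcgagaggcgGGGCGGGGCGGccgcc
The stretch of Bbc3 held 5 GC boxes, the last pair overlapping, that of Bax 2, that of Mcl1 1 and that of Bcl2l1 none. The GC content was 76.4% for Bbc3, 64.4% for Mcl1, 54% for Bax and 47.6% for Bcl2l1.

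Motifs were then counted on both strands in RefSeq windows from 250 bases before to 50 after each start. Of these windows 14 belonged to 9 of the 10 members, some of them overlapping, and Pmaip1 had none. The X-box, the palindromic motif that RFX factors bind, was in 0 of the 14 windows with a gap of 0 to 3 bases between its arms, and in 1.53% of all 32851 windows. The p53 response element, with a gap of at most 13 bases, was also in 0 of the 14, and in 0.0731% of all windows. GGGCGG was in 10 of the 14 windows, from 7 members, against 35.7% of all windows. CCAAT was in 3 windows, from Bbc3 and Bcl2l11, against 37.4% of all. GC boxes were thus the most frequent of these motifs in the windows of the members. The X-box and the p53 element are so rare over all windows that 14 windows would seldom hold one. Their absence from a window says only that these letters are not there.

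The 10 members spanned a wide range of levels. Averaged over the 4 samples, FPKM was 52.4 for Bcl2l1, 27.3 for Mcl1, 14.8 for Bax, 9.12 for Bcl2l2, 8.61 for Bak1, 3.32 for Bid, 1.95 for Bcl2l11, 1.08 for Pmaip1, 0.813 for Bbc3 and 0.150 for Bcl2. Each gene was above the next in all 4 samples and the ranges of neighbours did not meet, with 2 exceptions. Bcl2l2 was above Bak1 in 2 of 4 samples, and Pmaip1 was above Bbc3 in 2 of 4, so neither pair could be ordered. Among these 10 genes the order therefore ran from guardians and effectors to BH3-only genes, with Bcl2, the founding guardian, below them all. Among the genes tested, the mean level of Bcl2l1 lay at percentile 87.7 and that of Mcl1 at percentile 76.1, whereas Bcl2l2 (49.0) and Bak1 (47.5) lay near the middle and Bcl2l11 (12.9) and Pmaip1 (2.80) near the lower end.

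**Figure D1:**
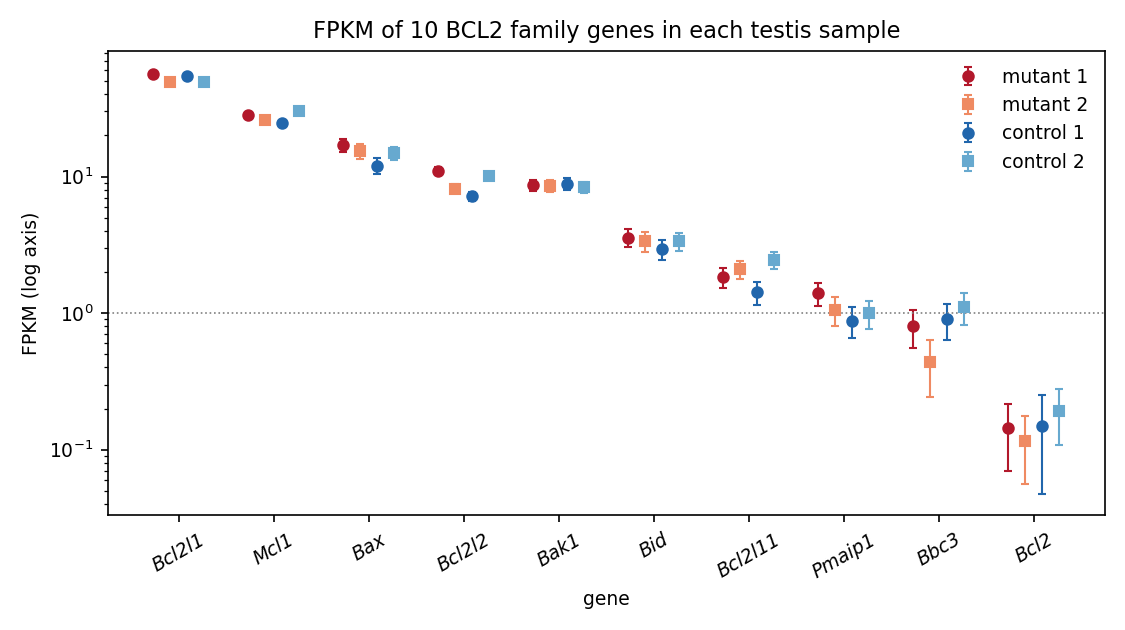
FPKM of the 10 BCL2 family genes (log axis) in mutant 1, mutant 2, control 1 and control 2, with the confidence bounds that the authors deposited as error bars and a dotted line at an FPKM of 1. Bcl2l1 lay between 49.2 and 56.6 in every sample and Bcl2 between 0.117 and 0.192, and the genotypes overlap for 5 of the 10 genes.

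The comparison of mutant with control samples asks whether loss of RFX2 at this age goes with a change in the mRNA of the apoptosis machinery. In stained sections, the paper reported more apoptotic cells in mutant than in wild-type testes at ages before and after this one. The RNA here is from whole testes, so a change confined to a small share of the cells may not show. It was made with limma on the log2(FPKM + 1) scale, keeping the 12985 genes that reached an FPKM of 1 in 2 or more samples, and a log2 fold change is a difference on that scale. Of the 10 members, 8 passed this filter and Bcl2 and Bbc3 did not. At an adjusted p of 0.05, 0 of the 8 were called by limma, and 0 of 8 had an unadjusted p under 0.05, the lowest being 0.222 for Bax (all 8 adjusted p = 0.9999). Over all genes tested, 2.83% were called, 327 lower (2.52%) and 40 higher (0.308%) in the mutant samples. In terms of single samples, both mutant values were above both control values for Bax, Bid and Pmaip1, both were below for Bcl2 and Bbc3, and the genotypes overlapped for the other 5 members. Among the 19502 genes with an FPKM above 0, 16.6% had both mutant samples higher and 15.4% had both lower.

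The 95% confidence intervals set the size of change on the log2(FPKM + 1) scale that these data leave possible. They reached from -0.51 to 0.70 on that scale over the 8 tested members, with SEs between 0.16 and 0.24. For genes near an FPKM of 1, this scale shows less than the change in FPKM itself. Pmaip1, for example, had a log2 fold change of 0.20 with a pseudocount of 1 and 0.34 with 0.1. The fitted values were all above 0, from 0.00069 for Mcl1 to 0.25 for Bax, with a median of 0.07 against 0.03 over all genes tested. With median-ratio scaling between samples, Bcl2l1, Mcl1 and Bak1 lay below 0 (-0.0012, -0.03 and -0.02), so the common sign rests partly on the scaling.

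**Figure D2:**
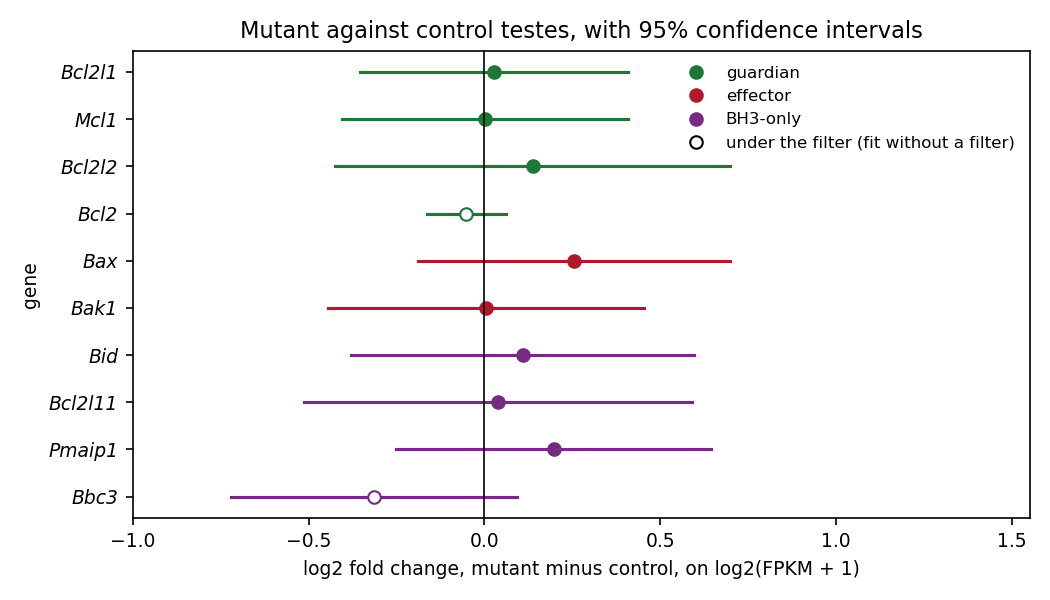
Log2 fold change of each member, mutant minus control on log2(FPKM + 1), as points with 95% confidence intervals from limma, coloured by role, with open points for the 2 genes under the filter taken from the fit without a filter. Every interval crosses 0, and the widest bounds of tested members are -0.51 (Bcl2l11) and 0.70 (Bax and Bcl2l2).

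Among the 10 members, the guardians were the most abundant class by summed FPKM. Bcl2l1, which encodes BCL-XL (chr2:152593052-152657464, minus strand, 10 annotated transcripts, mm9), had an FPKM of 56.6 in mutant 1, 49.3 in mutant 2, 54.5 in control 1 and 49.2 in control 2. One sample of each genotype was near 55 and one near 49, and the genotypes overlapped. The log2 fold change was 0.03 (SE 0.16, 95% CI -0.35 to 0.41), so that a fold between 0.783 and 1.33 remained possible. Gene-level FPKM sums the transcripts of Bcl2l1 and does not separate the long, protective form from the short, pro-apoptotic splice form BCL-XS.

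Mcl1 (chr3:95462643-95467099, plus strand), whose short-lived protein holds BAK and BIM, had an FPKM of 28.3 in mutant 1, 26.2 in mutant 2, 24.6 in control 1 and 30.1 in control 2. The control samples bracketed both mutant samples. Its log2 fold change was 0.00069 (SE 0.18, 95% CI -0.41 to 0.41).

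Bcl2l2 (chr14:55502214-55507071, plus strand) encodes BCL-W and had an FPKM of 11.0 in mutant 1, 8.16 in mutant 2, 7.21 in control 1 and 10.1 in control 2. The spread within each genotype was wider than the difference between genotypes, and the log2 fold change was 0.14 (SE 0.24, 95% CI -0.42 to 0.70). In the mm9 annotation Bcl2l2 shares 594 exonic bases, 13.3% of its exonic sequence, with the read-through gene model Gm20521 on the same strand, so reads from both may be split between them. Mcl1 and Bcl2l2 were both higher in mutant 1 and control 2 than in mutant 2 and control 1. That pattern was shared by 7 of 7 Sertoli cell markers in the files (summed FPKM 675, 593, 447 and 617 in mutant 1, mutant 2, control 1 and control 2). It was also in 5 of 7 spermatogonial, 4 of 8 spermatocyte and 4 of 6 macrophage markers. By contrast, it was in 2 of 5 peritubular and endothelial and 0 of 6 Leydig cell markers. Among spermatid markers it was in 0 of 8 round and 0 of 8 elongating ones. The median-ratio factors of the samples had it too (1.06, 0.962, 0.947 and 1.03). After division by these factors Mcl1 no longer had it (26.6, 27.2, 26.0 and 29.1), while Bcl2l2 still did (10.4, 8.49, 7.62 and 9.76). The part of cell make-up in these values was not tested.

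Bcl2 (chr1:108434755-108610851, minus strand) was the lowest member, with an FPKM of 0.143 in mutant 1, 0.117 in mutant 2, 0.150 in control 1 and 0.192 in control 2. Both mutant samples were lower, but every deposited confidence interval of a mutant sample overlapped those of both control samples. The widths of these intervals correspond to 9 to 21 fragments per sample, and 7.76% of the exonic bases of Bcl2 are shared with the opposite-strand transcript D630008O14Rik. Bcl2l1 had between 256 and 423 times the FPKM of Bcl2. In a fit without the filter the log2 fold change of Bcl2 was -0.05 (limma, unadjusted p = 0.288), so no difference was detectable at this depth.

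Among the effectors, Bax (chr7:52717065-52722268, minus strand) had the largest fitted change of the tested members with a pseudocount of 1, whereas that of Pmaip1 was larger with pseudocounts of 0.1 (0.34 against 0.27) and 0.01 (0.37 against 0.27) and without control 1 (0.15 against 0.11). Its FPKM was 17.0 in mutant 1, 15.3 in mutant 2, 12.0 in control 1 and 14.8 in control 2. Both mutant samples were higher than both control samples, by a small margin between mutant 2 and control 2. The deposited confidence intervals of mutant 1 (15.1 to 18.8) and control 1 (10.4 to 13.6) did not meet, while those of the other pairs of a mutant and a control sample overlapped. The log2 fold change was 0.25 (SE 0.19, 95% CI -0.19 to 0.70, limma unadjusted p = 0.222 and adjusted p = 0.9999). The corresponding fold of 1.19 has an interval from 0.877 to 1.62. On the log2 scale, without scaling between samples, the difference exceeded the gap between the mutant samples (-0.14, mutant 2 minus mutant 1). It did not exceed that between the control samples (0.29, control 2 minus control 1). After division by the median-ratio factors Bax was at 16.0, 15.9, 12.7 and 14.3 in mutant 1, mutant 2, control 1 and control 2. The log2 fold change was then 0.23 (limma adjusted p = 0.960), and the gap between the control samples remained the wider one.

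Bak1 (chr17:27156755-27165954, minus strand), which encodes the effector that sits permanently in the mitochondrial membrane, stayed within a narrow range. Its FPKM was 8.65 in mutant 1, 8.59 in mutant 2, 8.86 in control 1 and 8.34 in control 2, and the mutant samples lay between the control samples. The log2 fold change was 0.0036 (SE 0.19, 95% CI -0.45 to 0.45). It shares 14.8% of its exonic bases with the opposite-strand testis gene Ggnbp1, whose FPKM was 469 to 627, and whether the libraries kept strand was not given in the sources used here, so part of the Bak1 reads may come from that gene.

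Among the 10 members, the BH3-only genes were the least abundant class by summed FPKM. Bid (chr6:120841948-120866871, minus strand), whose protein is cleaved by caspase-8 and so links death receptors to mitochondria, had an FPKM of 3.58 in mutant 1, 3.383 in mutant 2, 2.94 in control 1 and 3.379 in control 2. Mutant 2 and control 2 differed only in the third decimal, and all deposited confidence intervals overlapped between genotypes. After division by the median-ratio factors Bid was at 3.37, 3.52, 3.11 and 3.27 in the same order, so that near-tie holds only without this scaling. The log2 fold change was 0.11 (SE 0.21, 95% CI -0.38 to 0.60). Its exons share 628 bases (17.7%) with those of the opposite-strand family gene Bcl2l13.

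Bcl2l11 (chr2:127951774-127988283, plus strand) encodes BIM, a BH3-only protein that binds every guardian. Its FPKM was 1.84 in mutant 1, 2.10 in mutant 2, 1.42 in control 1 and 2.45 in control 2. The control samples were the lowest and the highest of the 4, and the log2 fold change of 0.04 (SE 0.24, 95% CI -0.51 to 0.59) had the lowest bound among the tested members. Pmaip1 encodes NOXA, a p53-induced partner of MCL1, and had an FPKM of 1.39 in mutant 1, 1.06 in mutant 2, 0.878 in control 1 and 1.003 in control 2. Both mutant samples were above both control samples, with a log2 fold change of 0.20 (SE 0.19, 95% CI -0.25 to 0.64, limma unadjusted p = 0.340).

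Bbc3 (chr7:16894965-16903554, plus strand) encodes PUMA, the p53-induced protein that binds every guardian. Its FPKM was 0.804 in mutant 1, 0.438 in mutant 2, 0.901 in control 1 and 1.11 in control 2, so that only control 2 reached 1 and the gene was not tested. Both mutant samples were lower, and the mean of the mutant samples was 0.618 times that of the control samples. The deposited confidence intervals of mutant 2 (0.242 to 0.634) did not meet those of control 1 (0.635 to 1.17) or control 2 (0.823 to 1.40), while that of mutant 1 (0.559 to 1.05) overlapped both. These values correspond to 20 to 60 fragments per sample. In the fit without the filter the log2 fold change was -0.31 (SE 0.16, 95% CI -0.72 to 0.09), with an unadjusted p of 0.103 and an adjusted p of 0.778 from limma. Of the p53-induced members, Bax and Pmaip1 were tested and not called, and Bbc3 was not tested. Their fitted values were above 0 for Bax and Pmaip1 and below 0 for Bbc3, each with an interval that crosses 0. The part of p53 in these values was not tested.

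The balance between the classes was described from sums of FPKM over the 10 members only. The guardians summed to 96.0 in mutant 1, 83.8 in mutant 2, 86.5 in control 1 and 89.5 in control 2, a mean of 89.9 ± 8.67 (SD, n = 2) against 88.0 ± 2.17 (SD, n = 2). The effectors summed to 25.6, 23.9, 20.9 and 23.2 and the BH3-only genes to 7.61, 6.99, 6.14 and 7.94 in the same order. Effector sums were higher in both mutant samples, which is the separation of Bax seen above, whereas guardian and BH3-only sums of the members overlapped.

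**Figure D3:**
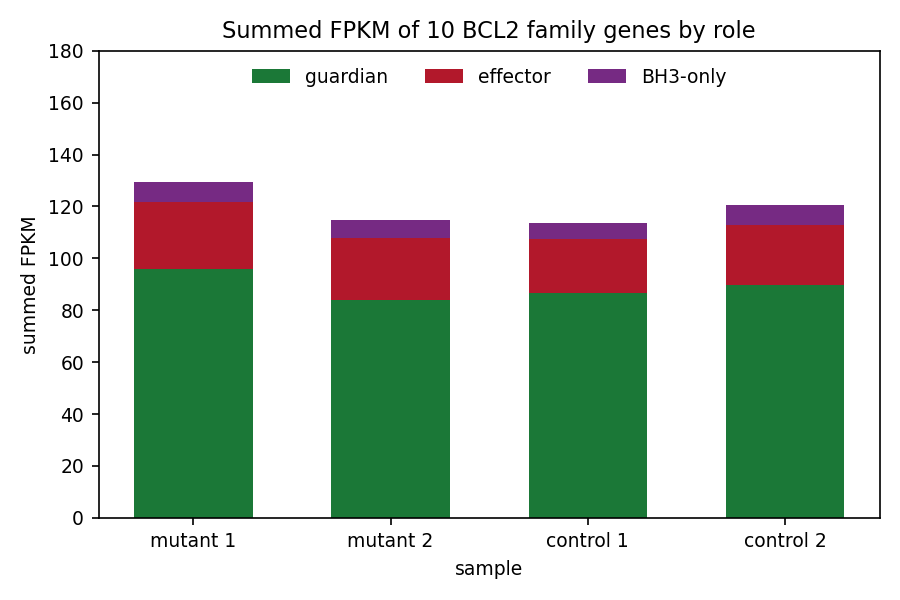
Summed FPKM of the guardians, effectors and BH3-only genes among the 10 members, stacked for each of the 4 samples. Guardians make up 73.1% to 76.2% of each bar, and the totals of the mutant (129 and 115) and control samples (113 and 121) overlap.

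The ratio of guardian to pro-apoptotic FPKM, with effectors and BH3-only genes together, was 2.89 in mutant 1, 2.71 in mutant 2, 3.20 in control 1 and 2.88 in control 2, and the genotypes overlapped. The ratio of guardians to effectors was 3.75 in mutant 1, 3.51 in mutant 2, 4.15 in control 1 and 3.86 in control 2, lower in both mutant samples but with 2 samples a genotype. Bcl2l1 supplied 54.9% to 63.1% of guardian FPKM and Mcl1 28.4% to 33.6%, whereas Bcl2 supplied 0.139% to 0.215%. Bax supplied 57.5% to 66.2% of effector FPKM. In each of the 4 samples, Bcl2l1 alone exceeded Bax by 3.23 to 4.55 times. An exact permutation test of 2 against 2 samples cannot give a two-sided p below 0.333, so these ratios are given as descriptions.

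The rest of the pathway was read from 3 lists: 18 other BCL2 family genes, 19 genes acting downstream of the outer membrane and 18 upstream regulators. Of these, 11, 18 and 16 were tested, and 0 in each list was called by limma, against 2.83% of all genes tested. At an unadjusted p under 0.05 there were 2 other family genes, both lower, and 0 in the other lists, against 6.68% of all genes lower and 2.01% higher. Median log2 fold changes were -0.03, 0.06 and 0.08 against 0.03 over all genes tested.

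Among the other family genes, Bcl2l12, Bnip2 and Bnip1 were expressed at the level of the main guardians. Bcl2l12 had an FPKM of 42.6, 40.2, 41.9 and 38.8 in mutant 1, mutant 2, control 1 and control 2, with a log2 fold change of 0.04 (SE 0.16). Bnip2 (41.8, 30.5, 34.9 and 39.3) and Bnip1 (28.9, 23.9, 29.2 and 24.7), which encodes a membrane-fusion protein of the endoplasmic reticulum with a BH3 motif, overlapped between genotypes at log2 fold changes of -0.05 and -0.03. All 3 thus stayed within the spread of their replicates.

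Bcl2l14, a family gene with high FPKM in these testes, had an FPKM of 16.2 in mutant 1, 40.8 in mutant 2, 52.7 in control 1 and 43.4 in control 2. Both mutant samples were lower, mutant 1 far more so than mutant 2. The log2 fold change was -0.87 (SE 0.37, 95% CI -1.72 to -0.02, limma unadjusted p = 0.0466, adjusted p = 0.550). Without mutant 1 the log2 fold change was -0.23, and without mutant 2 it was -1.51 with a limma adjusted p of 1.68e-09, in a fit that takes the lone mutant sample to vary like the controls. It passed in 2 of 15 alternative settings, that fit and the replicate block from the labels. Mutant 1 is the sample with low spermatid markers (Prm1 at an FPKM of 136 against 1195 to 1792 in the other samples), and the part of spermatid content in the Bcl2l14 value was not tested.

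Bad was named after its values were seen, since it had the lowest unadjusted p of the list. It encodes a BH3-only protein that binds BCL-XL and is silenced by phosphorylation under survival signals. Its FPKM was 16.2 in mutant 1, 16.0 in mutant 2, 27.2 in control 1 and 26.6 in control 2, so that the mutant samples were close to each other and below both control samples. The log2 fold change was -0.70 (SE 0.16, 95% CI -1.08 to -0.32), with an unadjusted p of 0.00279 and an adjusted p of 0.0823 from limma, which misses the threshold. Over 15 alternative settings it ranged from -0.74 to -0.65 with adjusted p from 0.0303 to 0.659, and it passed in 2 of them, robust eBayes and the fit without mutant 2. In mm9 Bad (chr19:7016351-7026388, plus strand) shares 517 exonic bases, 25.8% of its exonic sequence, with Gpr137 on the opposite strand.

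**Figure D4:**
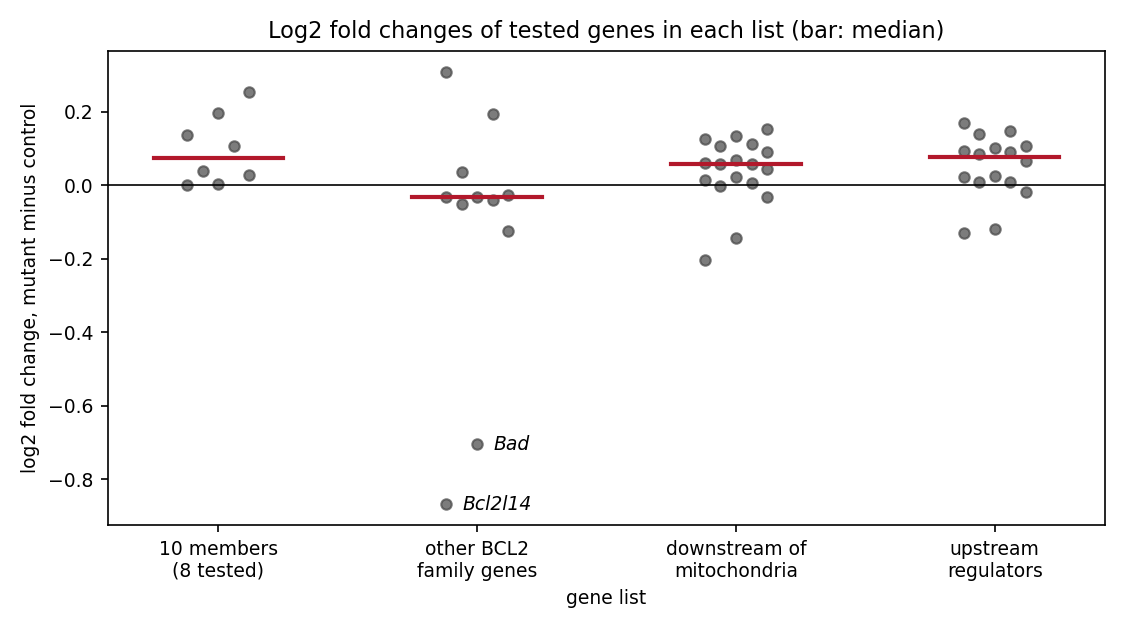
Log2 fold change (mutant minus control on log2(FPKM + 1)) of each tested gene among the 10 members, the other BCL2 family genes, the genes downstream of the mitochondria and the upstream regulators, with a bar at each median. Apart from Bad (-0.70) and Bcl2l14 (-0.87), the points lie between -0.20 and 0.31.

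The downstream genes included some of the most abundant transcripts of the pathway. Diablo, whose protein frees caspases from their inhibitors, had an FPKM of 224, 193, 211 and 203 in mutant 1, mutant 2, control 1 and control 2. Vdac2, an outer-membrane channel that holds BAK, had 221, 185, 200 and 174, and Cyct, the testis form of cytochrome c, had 135, 122, 118 and 129. Their log2 fold changes were 0.0071, 0.11 and 0.06, and that of the channel gene Vdac3 (94.4, 90.9, 88.8 and 89.2) was 0.06. The 18 tested genes of this list lay between -0.20 and 0.15, with 4 below 0 and 14 above. The initiator caspase genes were low, with Casp9 at 4.90, 4.39, 4.10 and 4.50 and Casp8 at 1.56, 1.74, 1.10 and 1.94, and both had a log2 fold change of 0.09.

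Of the upstream regulators, Ddit3 (CHOP), a stress-induced factor that raises Bcl2l11 and lowers Bcl2 in other cells, had an FPKM of 62.4, 69.6, 70.3 and 53.5 in mutant 1, mutant 2, control 1 and control 2. Its log2 fold change was 0.10. Mdm2, the ubiquitin ligase of p53 and itself a p53 target, had an FPKM of 43.5, 43.9, 46.5 and 49.3 and a log2 fold change of -0.13. The p53 gene Trp53 (12.97, 10.8, 9.35 and 11.9, log2 fold change 0.15), named after its values were seen, the integrated stress response factor Atf4 (31.1, 29.2, 25.8 and 27.6, 0.17) and the JNK kinase gene Mapk9 (21.0, 17.2, 15.2 and 20.2, 0.11) did not pass the test. The 16 tested regulators lay between -0.13 and 0.17 on the log2 scale, with 3 below 0 and 13 above. For this list and the downstream one, the median over all genes tested was itself above 0 (0.03). The counts of signs were taken without further scaling between samples only.

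By contrast, the death receptor gene Tnfrsf21 (DR6), which signals from the cell surface, had an FPKM of 10.9 in mutant 1, 17.9 in mutant 2, 1.19 in control 1 and 1.40 in control 2, and it rose by a log2 fold change of 2.71 (SE 0.27, limma adjusted p = 0.00131). The death receptor gene Fas was under the filter in all samples, at an FPKM of 0.207, 0.363, 0.315 and 0.256. The LIM domain gene Crip2 had an FPKM of 44.2, 64.0, 32.0 and 30.8, with a log2 fold change of 0.74 (SE 0.20, limma adjusted p = 0.155). Thus both mutant samples were higher than both control samples for Tnfrsf21 and Crip2, of which the first passed the test. Over all genes tested, 16.3% had both mutant samples higher. The paper picked both genes from those it found changed in these same data, so their direction here is no independent evidence. It also reported both as raised by real-time PCR.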

How the data were processed

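Testis RNA was sequenced on an Illumina instrument. Per the labels and methods, the authors aligned reads to mm9 with TopHat2 2.0.6, and the deposited files give FPKM per gene, as Cufflinks estimates them, with confidence bounds, normalized for gene length and depth within a sample. The files hold 22553 to 22563 entries, and 18416 to 18588 gene symbols per sample had an FPKM above 0. Read depth is not in the files. Read as 2 SDs of a Poisson count, the bounds correspond to 9 to 3698 fragments per member and sample, which covers counting error only. The authors' Cuffdiff comparison cannot be rerun from FPKM.

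FPKM of entries sharing a symbol were summed. The genotypes were compared with limma 3.58.1 in R 4.3.3 (lmFit, eBayes with a trend, two-sided) on log2(FPKM + 1), with Benjamini-Hochberg adjustment over 12985 genes, a threshold of 0.05 and 2 residual degrees of freedom before moderation. Since FPKM were deposited, no count test was used. The functions were tested on simulated data. Levels, sums and ratios are descriptions. Genes named were the members, Rfx2, the 4 most abundant genes of each list and any called, and Casp8, Casp9, Fas, Tnfrsf21 and Crip2. A further gene of this rule is not reported here. Gene positions came from an mm9 (NCBIM37) annotation and promoter sequences from RefSeq. Tables and plots were made with python 3.11.15 (pandas 2.3.3, matplotlib 3.10.9). The members, lists and alternatives were chosen with earlier results of these data known. Alternatives were pseudocounts of 0.1 and 0.01, no filter and a filter at an FPKM of 5, other scalings and moderations, a replicate block, and each replicate left out.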

Additional observations from a re-analysis of the deposited data

How the results depend on the processing

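No tested member was called in any of 15 alternatives (117 fits, lowest limma adjusted p 0.634), of which 104 kept the direction and 13 reversed it. Median-ratio scaling gave log2 fold changes of -0.0012 for Bcl2l1, -0.0283 for Mcl1 and -0.0237 for Bak1, with summed guardian FPKM of 91.4 in control 1 and 86.6 in control 2 and a pro-apoptotic sum of 31.3 in mutant 1. Leaving out each replicate gave ranges of -0.0686 to 0.13 for Bcl2l1, -0.14 to 0.14 for Mcl1, -0.0798 to 0.35 for Bcl2l2, -0.0351 to 0.0422 for Bak1 and -0.22 to 0.30 for Bcl2l11, so the sign of these 5 rests on single samples. Bax (0.11 without control 1 to 0.40 without control 2), Bid (0.03 without control 1 to 0.18 without control 2) and Pmaip1 (0.09 without mutant 1 to 0.30 without mutant 2) kept their sign, but their size moved by over 1.5 times. There the lone sample of a genotype is assumed to vary like the others. Pseudocounts of 0.1 and 0.01 took Bcl2 to -0.24 and -0.37 and Bbc3 to -0.66 and -0.74. Over all genes, against 327 lower and 40 higher, limma called 199 and 17 with no filter, 202 and 17 with a filter at an FPKM of 5, 17 higher with median-ratio scaling and 67 higher with robust eBayes. Leaving out a replicate gave 79 to 944 lower and 10 to 138 higher: 944 and 84 without mutant 2, 432 and 138 without mutant 1, 79 and 17 without control 1, and 93 and 10 without control 2. List genes called lower numbered 1 with robust eBayes (Bad), 1 with the replicate block (Bcl2l14, limma adjusted p 0.00548) and 0 to 2 without a replicate (Bad and Bcl2l14 without mutant 2). Deviations of same-numbered samples correlated at -0.15, so the numbers were not taken as pairs. The replicate block from the labels gave 525 lower and 70 higher and the crossed replicate block, added after seeing the data, 266 and 28, both with 0 members called. The cause of these changes was not tested. Genes under an FPKM of 1, here Bcl2 and Bbc3, rest on few fragments.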

Other observations

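A further 21 genes whose proteins bind or steer BCL2 family proteins were listed after the data had been seen. All 21 were tested and 0 were called by limma, against 2.83% of all genes, with 1 higher at an unadjusted p under 0.05. Their median log2 fold change was 0.08, with 17 above 0 and 4 below, against a median of 0.03 over all genes tested. The most abundant exceeded every member: the BAG family co-chaperone gene Bag6 had an FPKM of 248 in mutant 1, 268 in mutant 2, 285 in control 1 and 229 in control 2. Ywhae, a 14-3-3 protein gene, had 245, 219, 198 and 199, Bag5 had 172, 221, 213 and 177, and Bag1 had 128, 144, 141 and 124. Of these 4, Ywhae had both mutant samples above both control samples (log2 fold change 0.22, SE 0.18). Over the list, 7 of 21 genes had both mutant samples higher and 1 had both lower, against 16.3% and 15.2% of all genes tested.

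Bag3, a stress-induced co-chaperone gene, was the gene of that list with the lowest unadjusted p. Its FPKM was 17.3 in mutant 1, 24.0 in mutant 2, 15.2 in control 1 and 13.4 in control 2, with a log2 fold change of 0.49 (SE 0.21, limma unadjusted p = 0.0493, adjusted p = 0.570). Both mutant samples were higher, and the change missed the threshold after adjustment.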
